A study of Mus musculus with 24 samples.

Results

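The subject is 7 genes of the MHC class II antigen presentation pathway across 24 RNA-seq libraries of mouse gastrocnemius, a calf muscle of mostly fast fibres. They were taken by name: the chain genes H2-Aa, H2-Ab1 and H2-Eb1, the peptide-loading genes H2-DMa and H2-DMb1, the invariant chain gene Cd74 and the transactivator gene Ciita. All 7 were matched by symbol among the 55487 genes of each table, and 6 of them were among the 14690 genes tested, Ciita being too low. The first group of 8 mice had both hindlimbs held in casts and received MOTS-c, a small peptide whose reading frame lies in mitochondrial ribosomal RNA, for 8 days at 15 mg/kg/day, split over 2 intraperitoneal injections a day. The second group of 8 was casted for 8 days and injected with sterilized water, and the third group of 8 was not casted and received the same water injections. All mice were male C57BL/6J, listed as 12 weeks old and assigned to their groups at 10 weeks, and each gave 1 library of poly-adenylated RNA. The groups are called casted with MOTS-c, casted and uncasted.

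MHC class II molecules are pairs of an alpha and a beta chain that show peptides from the endosome to CD4 T cells. They are made mainly by B cells, dendritic cells and macrophages, and in resting muscle by resident macrophages and dendritic cells rather than by the fibres. The invariant chain fills the peptide groove until cathepsins degrade it, H2-DM exchanges its last fragment for antigen peptides, and CIITA, which interferon gamma can induce, switches the whole set on. CIITA binds no DNA itself: it docks on factors that sit on an X box, read by the RFX complex, and on a Y box, read by NF-Y.

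The 5 H2 genes lie in one region of chromosome 17 of GRCm38, with other genes such as H2-DMb2, Tap1, Tap2 and H2-Ob between some of them: H2-DMa at chr17:34119541-34139101, H2-DMb1 at chr17:34153072-34160230, H2-Ab1 at chr17:34257689-34269419, H2-Aa at chr17:34282744-34287823 and H2-Eb1 at chr17:34305867-34316674. H2-Aa is on the minus strand and the other 4 are on the plus strand. Ciita is at chr16:10480059-10528418 on the plus strand. A RefSeq promoter table of GRCm38.p6 held entries for 4 of the 7 genes (H2-Aa, H2-Eb1, H2-DMa and H2-DMb1). The 140 bases before the start are shown for the 2 members that hold both boxes in their usual order and for H2-Aa. In H2-Aa only the Y box was matched by this search. The same bases are shown for H2-Ob, a class II gene with both boxes that was read at a very low level. Capitals mark a Y box core (ATTGG, either strand) and an X box (the consensus read by RFX, either strand, at most 1 of its 10 fixed letters different), 5′ to 3′ on the gene's strand.
H2-DMb1 (chr17:34153051-34153190, plus strand): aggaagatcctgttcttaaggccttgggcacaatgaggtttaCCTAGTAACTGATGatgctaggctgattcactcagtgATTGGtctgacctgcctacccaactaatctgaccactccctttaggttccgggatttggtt
H2-Eb1 (chr17:34305727-34305866, plus strand): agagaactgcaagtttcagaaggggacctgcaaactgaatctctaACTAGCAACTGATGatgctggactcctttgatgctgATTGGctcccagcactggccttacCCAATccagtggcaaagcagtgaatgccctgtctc
H2-Aa (chr17:34287824-34287963, minus strand): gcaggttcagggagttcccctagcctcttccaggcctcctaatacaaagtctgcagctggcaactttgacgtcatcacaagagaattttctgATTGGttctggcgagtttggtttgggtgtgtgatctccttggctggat
H2-Ob (chr17:34238765-34238904, plus strand): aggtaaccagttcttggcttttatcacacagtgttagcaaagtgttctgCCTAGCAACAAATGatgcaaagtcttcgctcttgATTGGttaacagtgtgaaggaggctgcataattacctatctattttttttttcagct
The X box of H2-DMb1 matched at every fixed letter and began 98 bases before the start, with 23 bases between it and the Y box. In H2-Eb1 1 letter differed, the X box began 95 bases before the start and 22 bases lay between the boxes. H2-Aa held its Y box 48 bases before the start. In the 250 bases searched, an X box this close to the motif with a Y box 15 to 30 bases after it was in 15 of 32851 promoters (0.0457%), among them those of these 2 members and of 3 further class II genes, H2-Ob, H2-DMb2 and H2-Eb2. The Y box core alone was in 33.8% of all promoters and the X box alone in 1.6%. With up to 3 letters different the X box was in 82.9% of promoters, so the closer match was chosen after these data were seen. No close X box was found in either H2-DMa entry or in H2-Aa, and such a match is a string of letters, not a measured site. The search used 1 consensus, so an X box further from it would not be marked, and none is shown to be absent.

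The values are TPM, the share of a library's transcripts per gene corrected for length, here scaled between libraries so that the middle of all genes is level (scaled TPM). Depth cannot be read from TPM. The scaling matters for direction: on the TPM as deposited, the median of all genes tested was 0.39 higher on the log2 scale in casted than in uncasted libraries, 0.34 higher in casted with MOTS-c than in uncasted, and -0.07 for casted with MOTS-c against casted. The muscle label was checked against 8 skeletal muscle markers, which were abundant in every library and summed to between 67307 and 168478 scaled TPM. The libraries listed between 19832 and 21755 genes above 0.

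Cd74 was the most abundant member in all 3 groups. Across the 8 libraries casted with MOTS-c it ran from 21.3 to 84.3 scaled TPM with a median of 44.8, across the casted ones from 21.9 to 64.0 with a median of 33.0, and across the uncasted ones from 30.8 to 47.6 with a median of 44.7. The groups overlapped, and the uncasted libraries lay within the range of the libraries casted with MOTS-c. The alpha chain gene H2-Aa ran from 12.6 to 45.6 (median 27.6) in the libraries casted with MOTS-c, from 13.1 to 31.5 (19.9) in casted and from 15.5 to 31.1 (24.5) in uncasted. H2-Eb1, the beta chain of the E molecule, ran from 9.25 to 33.1 (18.5) with MOTS-c, from 8.89 to 25.4 (13.3) in casted and from 11.2 to 20.4 (16.6) in uncasted. H2-Ab1, the beta chain partner of H2-Aa, ran from 9.01 to 26.2 (16.7), from 9.67 to 22.01 (12.2) and from 10.9 to 19.6 (15.6) scaled TPM in the same 3 groups. For each chain gene the lowest medians were in casted libraries, and all 3 groups overlapped widely.

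The peptide exchangers were lower than every chain gene. H2-DMa ran from 1.78 to 4.57 scaled TPM (median 2.64) in libraries casted with MOTS-c, from 1.28 to 3.37 (2.11) in casted and from 1.71 to 4.48 (3.01) in uncasted. H2-DMb1 ran from 0.99 to 3.47 (2.50), from 1.09 to 2.91 (1.71) and from 1.18 to 2.96 (1.93). The loci overlap or resemble neighbours. H2-DMb1 is 97.3% identical to H2-DMb2 over 564 bases, which are 81.5% of the H2-DMb1 transcript with the largest share aligned. H2-DMa overlaps Brd2 on the other strand by 3094 bases. H2-Eb1 overlaps the antisense gene Gm20513 by 2204 bases, and Ciita overlaps Dexi by 25888 bases. The sources used here do not say if strand was kept, so the values of H2-DMa, H2-Eb1 and Ciita are uncertain in part. Those of H2-DMb1 are uncertain too, because it may share reads with H2-DMb2, which lies on the same strand. Ciita, the switch of the set, was above 0 in all 24 libraries but low. It ran from 0.080 to 0.783 scaled TPM (median 0.276) with MOTS-c, from 0.10 to 0.669 (0.265) in casted and from 0.025 to 0.444 (0.139) in uncasted libraries, and all groups overlapped. The means were 0.33 ± 0.21 scaled TPM (SD, n = 8) with MOTS-c, 0.32 ± 0.19 in casted and 0.21 ± 0.15 in uncasted. No difference passed exact two-sided permutation tests over 12870 splits: the exact p was 0.908 for casted with MOTS-c against casted, 0.202 for casted against uncasted and 0.184 for casted with MOTS-c against uncasted, and the adjusted values over these 3 were 0.908, 0.303 and 0.303.

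**Figure D1:**
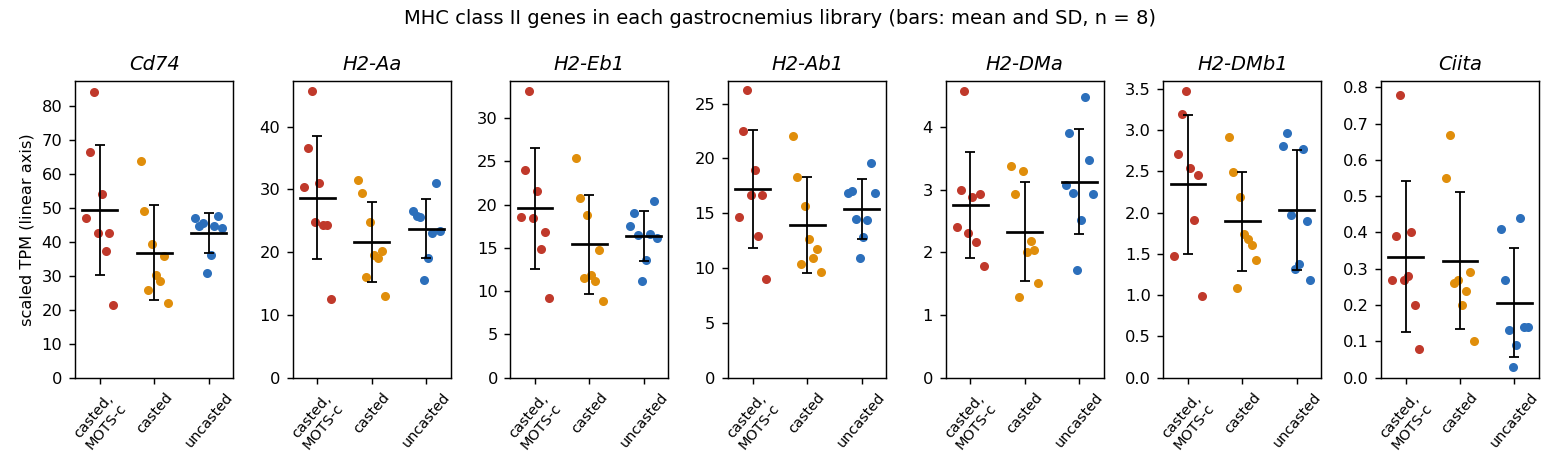
Scaled TPM (linear axis, own scale per gene) of the 7 genes in each of 24 libraries, with casted with MOTS-c, casted and uncasted from left to right; bars give mean and SD (n = 8). The groups overlap for every gene, and 1 library casted with MOTS-c reaches 84.3 scaled TPM for Cd74 while another lies at 21.3.

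The 4 other class II genes stayed below the level tested. H2-DMb2, the near copy of H2-DMb1, averaged 0.34, 0.19 and 0.35 scaled TPM in casted with MOTS-c, casted and uncasted libraries, and H2-Ob averaged 0.15, 0.19 and 0.21. H2-Oa, whose product with that of H2-Ob restrains H2-DM and is typical of B cells, was above 0 in 4, 5 and 1 of 8 libraries of these groups, and H2-Eb2 in 5, 2 and 0 of 8. So genes with the same pair of boxes differed widely in level: H2-Eb1 averaged 15.4 scaled TPM or more in each group, and H2-Ob and H2-Eb2 stayed under 0.5. H2-Ea-ps, the alpha partner of H2-Eb1, was listed at 0 in all 24 libraries; C57BL/6 mice are known to carry a broken copy of that gene and to make no E molecule at the surface, and this gene was singled out after its values were seen.

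The chain genes and Cd74 kept nearly the same proportions while their levels varied. Per length, Cd74 was 1.71 ± 0.11 times H2-Aa in libraries casted with MOTS-c, 1.67 ± 0.17 times in casted and 1.82 ± 0.15 times in uncasted ones (SD, n = 8 each). H2-Aa exceeded its beta partner H2-Ab1 in 24 of 24 libraries, by 1.59 ± 0.17 times over all of them, and H2-Eb1 exceeded H2-Ab1 in 21 of 24, by 1.10 ± 0.10 times. The order Cd74, H2-Aa, then both beta chains held in 24 of 24 libraries, whereas H2-Eb1 and H2-Ab1 differed by less than the spread of their ratio. H2-DMa was 1.37 ± 0.37 times H2-DMb1 and higher in 23 of 24 libraries, with 0.67 times as the lowest value.

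Within a group, the same library was often the highest or the lowest for several members. The SD of log2(scaled TPM + 1) had a median over the 6 tested members of 0.477 in casted with MOTS-c, 0.401 in casted and 0.277 in uncasted libraries, against 0.206, 0.196 and 0.159 over all genes tested. This SD depends on the level of a gene, and all genes were not matched to the members for level. The gap is therefore not read as particular to class II. Replicate 3 casted with MOTS-c was highest of its group for 6 of the 7 members and replicate 8 lowest for all 7. In the casted group replicate 1 was highest for 6 of 7 and replicate 8 lowest for 5 of 7, and in the uncasted group replicate 4 was lowest for 6 of 7. The highest uncasted library varied more: it was replicate 7 for Cd74, H2-Aa, H2-Ab1 and H2-Eb1, replicate 6 for H2-DMa and Ciita and replicate 2 for H2-DMb1. Cd74 and H2-Aa rose and fell together across the 8 libraries of each group: Pearson's r was 0.99 with MOTS-c (exact permutation p = 4.96e-05, adjusted p = 0.000446 over 27 relations), 0.97 in casted (exact p = 2.48e-05, adjusted 0.000446) and 0.95 in uncasted (exact p = 0.000198, adjusted 0.000765). Spearman's rho was 0.98 (exact permutation p = 0.000397), 1.0 (4.96e-05, the smallest these permutations can give for it) and 0.88 (0.00724), with adjusted values of 0.00214, 0.00134 and 0.0196. Without the 2 libraries farthest from the median, r was 0.95, 0.97 and 0.85. In the same order of groups, Cd74 had r of 0.99, 0.98 and 0.94 with H2-Eb1 and of 0.98, 0.97 and 0.885 with H2-Ab1. Without the 2 farthest libraries these were 0.97, 0.96 and 0.61, and 0.91, 0.93 and 0.545, so they were weaker in uncasted libraries. There, rho with H2-Ab1 was 0.74 and did not pass after adjustment (exact permutation p = 0.0458, adjusted 0.0884).

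The less abundant members were also set against Cd74, with no test of one correlation against another. With H2-DMa, r was 0.90 in casted with MOTS-c (exact permutation p = 0.00489, adjusted 0.0101; 0.73 without the 2 farthest libraries), 0.88 in casted (exact p = 0.00481, adjusted 0.0101; 0.83) and 0.81 in uncasted (exact p = 0.0118, adjusted 0.0227), where it was -0.195 without those 2 and rests on them. Its rho was 0.93, 0.88 and 0.64 (exact permutation p = 0.00223, 0.00724 and 0.0962; adjusted 0.01, 0.0196 and 0.153). Between Cd74 and H2-DMb1, r was 0.74 in casted with MOTS-c (exact permutation p = 0.0347, adjusted 0.0586; 0.21 without the 2 farthest libraries), 0.92 in casted (exact p = 0.00164, adjusted 0.00499; 0.89) and 0.59 in uncasted (exact p = 0.149, adjusted 0.161; 0.17), with rho of 0.55, 0.90 and 0.52 (exact permutation p = 0.171, 0.00456 and 0.197; adjusted 0.22, 0.0154 and 0.231). Cd74 against Ciita gave r of 0.83 with MOTS-c (exact permutation p = 0.0208, adjusted 0.0374), 0.88 in casted (0.00424, adjusted 0.0101) and 0.63 in uncasted (0.07, adjusted 0.09), and rho of 0.57, 0.86 and 0.62 (exact p = 0.151, 0.0107 and 0.115; adjusted 0.204, 0.0263 and 0.172). Without the 2 farthest libraries the r with Ciita was 0.21, 0.80 and 0.02, so that outside the casted group it rested on those libraries. Cd74 and the mean log2 level of 10 pan-leukocyte markers had r of 0.75 with MOTS-c, 0.73 in casted and 0.62 in uncasted, none past the threshold after adjustment (exact permutation p = 0.0452, 0.0417 and 0.116; adjusted 0.0642, 0.063 and 0.136), and rho of 0.26, 0.79 and 0.64 (exact p = 0.536, 0.0279 and 0.0962; adjusted 0.557, 0.058 and 0.153). The value with MOTS-c turned to -0.52 without replicates 3 and 8 and rests on them, while the others were 0.68 and 0.57 without their 2 farthest libraries. With the mean log2 level of the tested macrophage or dendritic cell markers, no r or rho of Cd74 passed after adjustment in any group. With MOTS-c these r were 0.70 and 0.60, and -0.215 and -0.085 without replicates 3 and 8.

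**Figure D2:**
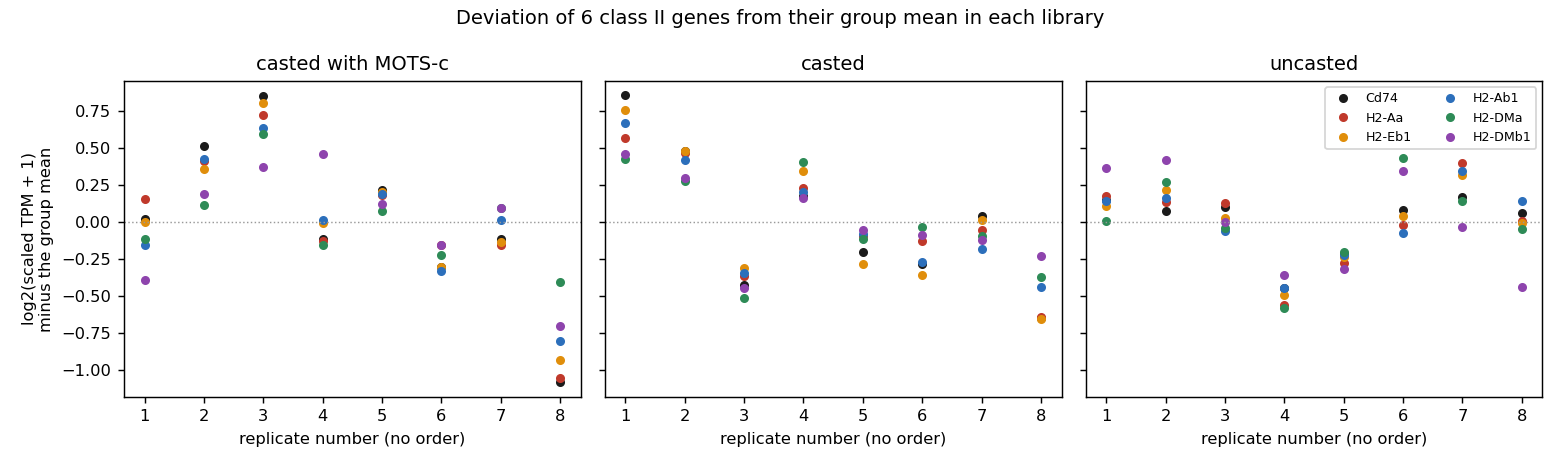
Difference of log2(scaled TPM + 1) from the group mean for 6 class II genes in each library, by replicate number, in casted with MOTS-c, casted and uncasted groups from left to right. Points of 1 library sit close together: all 6 genes lie above 0 in replicate 3 casted with MOTS-c and below 0 in its replicate 8.

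The first comparison asks whether MOTS-c changed the class II genes of casted muscle. No member passed the test. Of the 6 tested members, 0 had a limma adjusted p under 0.05, where 0.0204% of all genes tested did, and 0 had an unadjusted p under 0.05, where 13.5% did. The 6 fitted log2 fold changes were between 0.18 and 0.40 with a median of 0.30, against -0.005 over all genes. Cd74 averaged 49.5 ± 19.1 scaled TPM in casted with MOTS-c and 36.8 ± 13.9 in casted libraries (SD, n = 8 each), a log2 fold change of 0.40 ± 0.21 (SE; 95% interval -0.04 to 0.83; limma adjusted p = 0.413). H2-Aa averaged 28.7 ± 9.8 and 21.7 ± 6.4, a log2 fold change of 0.36 ± 0.20 (limma adjusted p = 0.418). These sizes depended on which casted libraries were used. Cd74 differed by 0.12 when only casted replicates 1 to 4 entered and by 0.67 when only 5 to 8 did (limma adjusted p = 0.995 and 0.0638). The median of the 6 members was 0.05 and 0.55. No label gives this division, which was chosen with earlier results of these data known. Its p-values and counts, here and below, only describe how results depend on the libraries used and are no evidence for a subgroup. None of the 6 passed in either, and 10.3% of all genes did with replicates 5 to 8. With those replicates 9 of 17 macrophage markers and 2 of 10 pan-leukocyte markers were also higher in casted with MOTS-c than in casted muscle. Their part in the class II values was not tested.

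Casting alone was assessed by setting casted against uncasted muscle. Again no member passed, in a comparison where 56.5% of all genes tested did. Only H2-DMa had an unadjusted p under 0.05, where 61.0% of all genes had: it averaged 2.33 ± 0.79 scaled TPM in casted and 3.13 ± 0.84 in uncasted libraries, a log2 fold change of -0.32 ± 0.15 (95% interval -0.63 to -0.01; limma adjusted p = 0.0757). Cd74 averaged 36.8 ± 13.9 in casted and 42.6 ± 5.9 in uncasted libraries, a log2 fold change of -0.27 ± 0.21 (limma adjusted p = 0.287). H2-Aa, H2-Ab1, H2-Eb1 and H2-DMb1 had fitted values between -0.16 and -0.06. The median of the 6 was -0.16, against 0.006 over all genes, and no direction can be given, because on the deposited TPM all 6 values were above 0 (0.05 to 0.34, none called, where 62.2% of genes were called higher). With only casted replicates 5 to 8, H2-DMa passed (-0.47, limma adjusted p = 0.0194, where 27.7% of genes were called lower), and it did so too without casted replicate 1, casted replicate 4 or uncasted replicate 4 (limma adjusted p = 0.0365, 0.0398 and 0.0233). These were 3 of 24 fits with 1 library left out, and in the rest it did not pass (limma adjusted p up to 0.168). Between 7887 and 8384 of all genes were called in either direction in the 24 fits.

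Casted muscle with MOTS-c was also compared with uncasted muscle, which shares its libraries with both comparisons above. Of the 6 members 0 passed, where 50.7% of all genes did, and 0 had an unadjusted p under 0.05, where 56.0% did. The fitted log2 fold changes were between -0.14 for H2-DMa and 0.21 for H2-Aa (limma adjusted p = 0.471 and 0.385), with a median of 0.13 against 0.014 over all genes. Cd74 averaged 49.5 ± 19.1 scaled TPM in casted with MOTS-c and 42.6 ± 5.9 in uncasted libraries, a log2 fold change of 0.13 ± 0.21 (95% interval -0.31 to 0.56). On the deposited TPM 5 of the 6 were called higher, all but H2-DMa, where 60.0% of all genes were called higher; H2-Aa led with 0.63 (limma adjusted p = 0.009).

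Leukocyte markers did not stay level in the same libraries. Of 10 pan-leukocyte markers, 9 rose in casted with MOTS-c against uncasted muscle (median log2 fold change 0.91, where 26.0% of all genes rose and 24.7% fell) and 7 in casted against uncasted (median 0.54, where 28.7% rose and 27.7% fell); on the deposited scale all 10 did in both, where 60.0% and 62.2% of all genes were higher. Their summed level was between 30.3 and 71.6 scaled TPM in casted with MOTS-c, 24.3 and 72.3 in casted and 16.8 and 28.6 in uncasted libraries, and none of the 10 was at 0 throughout. Cd53, a tetraspanin of leukocytes, averaged 5.29 ± 1.33 scaled TPM in casted with MOTS-c, 4.08 ± 1.72 in casted and 2.12 ± 0.37 in uncasted libraries (log2 fold change 0.98 and 0.64 against uncasted; limma adjusted p = 2e-05 and 0.00149). Of 17 tested macrophage markers 13 rose and 0 fell in casted with MOTS-c against uncasted, and 10 rose and 2 fell in casted against uncasted. On the deposited scale 15 and 14 were higher and 0 lower. The macrophage markers summed to between 159 and 369 scaled TPM with MOTS-c, 126 and 301 in casted and 106 and 142 in uncasted libraries. Against uncasted, the 17 tested had a median log2 fold change of 0.871 with MOTS-c and 0.385 in casted. The lysosomal protein gene Cd68 lay far above these medians at 2.37 and 2.54 (limma adjusted p = 4.13e-07 and 8.72e-08). The next largest were Lyz2 at 1.14 with MOTS-c and Ccr2 at 0.76 in casted. The 2 that fell in casted were Mertk at -0.34 and Folr2 at -0.36 (limma adjusted p = 0.00181 and 0.0469). Neither was called on deposited TPM (0.0057 and 0.048). With only casted replicates 5 to 8 the counts against uncasted muscle were 1 of 10 and 4 of 17 higher, with 2 lower, where 28.5% of all genes were higher, and with only 1 to 4 they were 9 of 10 and 12 of 17, with 1 lower, where 20.7% were. In bulk tissue fewer cells of a type and less RNA per cell cannot be told apart.

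Of 7 tested dendritic cell markers, 3 were higher in casted with MOTS-c against uncasted, where 26.0% of all genes were, and 2 in casted against uncasted, where 28.7% were. On the deposited scale 6 and 5 were higher, beside 60.0% and 62.2% of all genes, and the difference between this list and the leukocyte lists was not tested. Clec10a, a lectin of type 2 dendritic cells and macrophages, averaged 7.47 ± 2.76 with MOTS-c, 4.82 ± 0.68 in casted and 2.71 ± 0.88 scaled TPM in uncasted libraries (1.17 and 0.67 on the log2 scale against uncasted; limma adjusted p = 1.17e-06 and 0.000639). Zbtb46, a transcription factor of dendritic and some endothelial cells, gave 0.30 and 0.40 (limma adjusted p = 0.0146 and 0.00132). The 14 dendritic cell markers summed to 22.2 to 35.1 with MOTS-c, 19.6 to 30.5 in casted and 17.6 to 24.8 scaled TPM in uncasted libraries, with 7 of them under 0.5 on average. B cell markers were near 0: all 10 averaged under 0.5 scaled TPM and they summed to between 0.14 and 1.58 in any library, below the class II total of 55.0 to 198 scaled TPM. T cell markers averaged under 0.5 for 9 of 10.

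The class II genes were also set against the pan-leukocyte markers of the same library. Because these markers were themselves higher in both casted groups, most genes are lower on this scale. This ratio is log2(scaled TPM + 1) minus the mean of the 10 markers, fitted by limma over all genes. Relative to these markers, all 6 members were lower in casted than in uncasted libraries, by 0.60 to 0.86 on the log2 scale (limma adjusted p between 4.18e-05 and 0.0015), and 60.9% of all genes were lower by the same call, with a median of -0.530. All 6 were also lower in casted with MOTS-c than in uncasted libraries, at -0.60 to -0.95 (limma adjusted p between 5.08e-06 and 0.0014), where 84.8% of all genes were lower and the median was -0.795. H2-DMa had the lowest ratio in both, -0.86 ± 0.16 in casted and -0.95 ± 0.16 in casted with MOTS-c (SE). So 6 of 6 stands beside a background that was itself high, and the median of the members was -0.69 in casted and -0.68 in casted with MOTS-c. Nothing particular to class II is read from these values. Their size depends on the pseudocount. With 0.1 in place of 1 the members were at -0.84 to -1.19 in casted and at -0.88 to -1.27 in casted with MOTS-c. The median of all genes on that scale is not given. All 6 calls in each comparison were also made with any 1 library left out. In those fits between 8366 and 10371 of all genes were called in either direction in casted against uncasted libraries. In casted with MOTS-c against uncasted libraries between 12017 and 13210 were. The 6 calls in casted against uncasted were also made with either set of 4 casted libraries. The share of all genes called lower is not given for any of these fits. Nothing particular to class II is therefore read from them. In casted with MOTS-c against casted libraries the 6 ratios were between -0.09 and 0.12 and 0 of 6 passed (0.0136% of all genes did; 0 of 6 and 20.8% at an unadjusted p under 0.05).

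**Figure D3:**
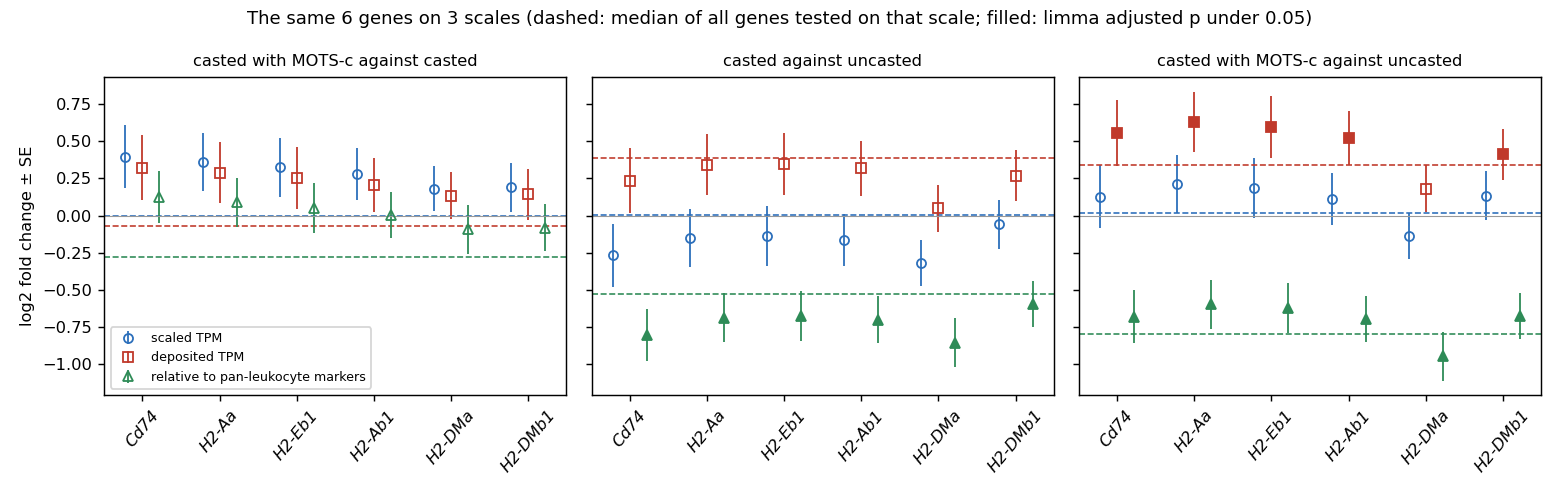
Log2 fold change ± SE of 6 class II genes in the 3 comparisons on scaled TPM (blue circles), deposited TPM (red squares) and relative to pan-leukocyte markers (green triangles); dashed lines give the median of all genes tested on that scale and filled symbols passed limma. Relative to leukocyte markers all 6 genes lie between -0.95 and -0.60 in both comparisons with uncasted muscle, near the dashed medians of -0.530 and -0.795.

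Most genes listed as working beside class II in the endosome rose against uncasted muscle. Of 11 genes of peptide supply and class II turnover, 8 rose and 0 fell in casted with MOTS-c against uncasted (median 0.41 against 0.014 over all genes, of which 26.0% rose), and 7 rose and 1 fell in casted against uncasted (median 0.34 against 0.006, with 28.7% of all genes rising). On the deposited scale 10 and 11 were higher, beside 60.0% and 62.2% of all genes, and Ctsb, the cathepsin gene that fell on the scaled values (-0.19 in casted against uncasted, limma adjusted p = 0.0198), was higher there (0.33, limma adjusted p = 0.00252). It did not pass on scaled values without casted replicate 6 (-0.15). Ctss, the cathepsin that trims the invariant chain in antigen-presenting cells, averaged 22.6 ± 9.7 scaled TPM with MOTS-c, 13.2 ± 4.1 in casted and 5.40 ± 0.89 in uncasted libraries (1.78 ± 0.22 and 1.10 ± 0.22 on the log2 scale against uncasted; limma adjusted p = 3.65e-07 and 0.000119). Every casted library, with or without MOTS-c, was above the uncasted ones for Ctss. Ifi30, a thiol reductase that unfolds antigens, averaged 21.7 ± 7.2 with MOTS-c, 28.8 ± 11.1 in casted and 8.04 ± 1.07 in uncasted libraries (1.26 and 1.65; limma adjusted p = 1.89e-05 and 2.79e-07). Ctsl, a cathepsin that muscle fibres also make, averaged 321 ± 127, 398 ± 215 and 96.6 ± 2.8 in these groups (1.58 and 1.87; limma adjusted p = 5.03e-05 and 4.2e-06). In casted with MOTS-c against casted muscle 0 of the 11 passed, with Ctss highest at 0.67 (limma adjusted p = 0.21), and at 0.96 (limma adjusted p = 0.0252) when only casted replicates 5 to 8 entered.

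The counts for the transcription machinery depended on the scale. Of 10 genes, 1 rose and 4 fell in casted with MOTS-c against uncasted muscle and 1 rose and 3 fell in casted against uncasted, beside 24.7% and 27.7% of all genes lower; on the deposited scale 5 and 8 were higher and 0 lower, beside 60.0% and 62.2% of all genes higher. Rfx5, the DNA-binding subunit of the RFX complex, was the gene that rose: it averaged 6.69 ± 0.90 scaled TPM with MOTS-c, 7.86 ± 0.97 in casted and 3.86 ± 0.68 in uncasted libraries, without overlap between casted and uncasted libraries (0.67 and 0.87 on the log2 scale; limma adjusted p = 1.58e-06 and 1.94e-08). Nfyb, a subunit of NF-Y, was lower at -0.47 and -0.53 (limma adjusted p = 8.89e-05 and 1.42e-05), but -0.05 and -0.03 on the deposited scale, where it did not pass. In the interferon gamma pathway 8 of 10 genes were tested, and 1 rose and 2 fell with MOTS-c against uncasted while 2 rose and 2 fell in casted against uncasted (5 and 1, and 6 and 1, on the deposited scale). These counts stand beside 26.0% of all genes higher and 24.7% lower with MOTS-c, and 28.7% and 27.7% in casted. Jak2, a kinase of the interferon gamma receptor, was lower on both scales at -0.65 and -0.92 (limma adjusted p = 2.86e-05 and 1.86e-07), and Ptpn2, a phosphatase that restrains that signal, was higher at 0.66 and 0.81 (limma adjusted p = 0.0002 and 1.33e-05). In casted with MOTS-c against casted muscle 0 genes of either list passed.

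MHC class I presentation, which nearly all cells carry out, gave 4 of 12 genes higher and 0 lower in both comparisons with uncasted muscle, where 26.0% of all genes were higher with MOTS-c and 28.7% in casted, and 0 of 12 in casted with MOTS-c against casted. On the deposited scale 11 of 12 were higher in both, beside 60.0% and 62.2% of all genes. The class I heavy chain gene H2-D1 averaged 61.7 ± 7.3 with MOTS-c, 61.3 ± 4.8 in casted and 44.6 ± 3.1 scaled TPM in uncasted libraries (0.45 in both on the log2 scale; limma adjusted p = 5.68e-06 and 4.34e-06), and the chaperone gene Canx was higher by 0.64 and 0.86 (limma adjusted p = 2.63e-05 and 3.32e-07). Of 4 tested genes of T cell costimulation, Cd86, a ligand of CD28, alone passed, at 0.35 in casted with MOTS-c against uncasted (limma adjusted p = 0.00399), where 26.0% of all genes were higher, and 0 of 4 passed in casted against uncasted. On the deposited scale 1 and 2 of the 4 were higher.

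**Figure D4:**
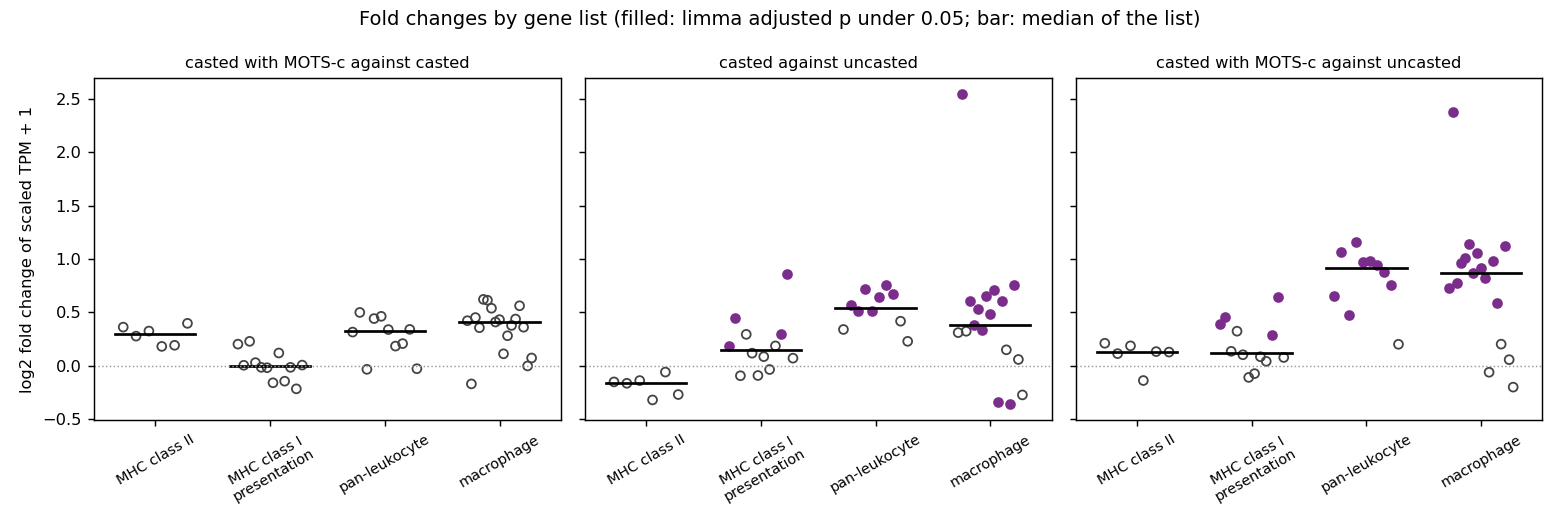
Log2 fold changes of scaled TPM + 1 of each tested gene in 4 lists for the 3 comparisons; filled points passed limma and bars give list medians. No MHC class II gene is filled, and the class II medians are 0.30, -0.16 and 0.13 in the panels from left to right, against 0.33, 0.54 and 0.91 for pan-leukocyte markers.

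The genes most like the class II chains from library to library were found by the Pearson correlation of group-centred log2 values with H2-Aa, H2-Ab1, H2-Eb1 and Cd74 over the 24 libraries, ranked by the lowest of the 4. The chains themselves reached 0.94 to 0.98 with each other, H2-DMa 0.82 to 0.85 and H2-DMb1 0.70 to 0.75. The leading 10 other genes were Gltp (0.84), Kctd12 (0.83), Sdc3 (0.82), Rap2b (0.82), Olfml2b (0.815), Rgs18 (0.815), Galnt10 (0.81), Tmsb10 (0.81), Slamf9 (0.81) and Fstl1 (0.80). Without replicates 3 and 8 casted with MOTS-c the lowest r of these genes was between 0.69 and 0.78. The libraries share their scaling, and these values describe likeness over 24 libraries with no test. Against uncasted muscle, 5 of the 10 were lower in casted libraries by limma and 0 higher, and 2 were lower and 1 higher in casted with MOTS-c. Of all genes, 27.7% were lower and 28.7% higher in casted, and 24.7% and 26.0% in casted with MOTS-c. Of the lower ones in casted against uncasted, Fstl1 had a log2 fold change of -0.715 and Olfml2b of -0.70 (limma adjusted p = 0.0077 and 0.0003). Tmsb10, which encodes a thymosin, had -0.60 (limma adjusted p = 0.0071). In casted with MOTS-c against uncasted, Fstl1, Olfml2b and Tmsb10 had -0.26, -0.37 and 0.0067 (limma adjusted p = 0.347, 0.0449 and 0.980). These calls are on scaled TPM, and values on the deposited scale are not given for these genes.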

How the data were processed

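Frozen gastrocnemius gave RNA by TRIzol and then a column kit, and poly-adenylated RNA was captured for the libraries, per the labels' protocols. The deposited values are TPM, made by the authors; the submitters' processing notes name FastQC, STAR, RSEM, DESeq2 and GRCm38.p6, with no versions. TPM carries no depth, so no counting interval was given. Each of 24 tables lists 55487 genes.

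TPM was divided by a trimmed mean of log ratios (30% of ratios and 5% of levels trimmed at each end) over the 14690 genes with at least 0.5 TPM in at least 8 libraries. Because TPM are not counts, log2(scaled TPM + 1) was fitted in limma 3.58.1 (R 4.3.3, trend) with the 3 group means, and p-values were adjusted over all genes tested by Benjamini-Hochberg, with a threshold of 0.05. The fit was also run on simulated data with independent noise for each gene. That simulation held no shift shared by the genes of a library, so it does not show how stable the calls are. A second fit subtracted the mean log2 level of 10 pan-leukocyte markers. Ciita, below the minimum, was tested by exact permutation, as were 27 relations. No 2 libraries shared more than 1.34% of values, so none was counted as a repeat deposit.

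The members, lists and the division of casted replicates into 1 to 4 and 5 to 8, which no label gives, were chosen with earlier results of these data known. From each list, the genes named are among up to 3 per direction and comparison with the largest change past the threshold. Near copies were searched with blastn 2.17.0. Alternatives were deposited TPM, median-of-ratios scaling, a pseudocount of 0.1, other filters, fewer groups, array weights, a replicate block, either set of 4 casted libraries and leaving out each library. No label says that a replicate number pairs libraries, so the main fit had no block.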

Additional observations from a re-analysis of the deposited data

Results flagged for a closer look

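Of 36 sets of 8 libraries, 1 for each gene and group, 4 held a library far from the rest by Dixon's test on scaled TPM. The usual rate of about 1 in 20 assumes a normal spread, which values near 0 do not have. Sets at 0 throughout, such as those of H2-Ea-ps, could not be marked. So the count of 4 is not set against chance. H2-DMa reached 4.57 scaled TPM in replicate 3 casted with MOTS-c, where the next library had 3.0. Ciita reached 0.78 in the same library, where the next had 0.40. H2-Oa was at 0.07 in uncasted replicate 2 and at 0 in the others, and H2-Ob was at 0.38 in casted replicate 2, where the next had 0.22.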

How the results depend on the processing

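In casted with MOTS-c against casted muscle, the count of all genes called was 3; it was 8 on deposited TPM, 0 with a pseudocount of 0.1, 0 with no filter, 1 when genes needed 8 libraries at 1 TPM or more, 0 with only the 2 groups compared, 0 with array weights and 1515 with only casted replicates 5 to 8, and it was between 0 and 63 with any 1 library left out (63 without casted replicate 1). Relative to pan-leukocyte markers it was 2, against 0 with a pseudocount of 0.1, 0 with only the 2 groups, 0 with casted replicates 1 to 4, 6250 with 5 to 8, and 0 to 4295 with any 1 library left out (4295 without casted replicate 2). With the replicate block these counts were 18 and 8, and the counts of members called did not change in any comparison. In casted with MOTS-c against casted, Cd74 and H2-Aa then had unadjusted limma p of 0.0494 and 0.0457 (limma adjusted p = 0.347 and 0.341). The deviations of libraries with the same number had r between -0.25 and 0.37. The same number gave the highest r in 2 of 8 libraries for casted with MOTS-c against casted. It did so in 2 of 8 for casted against uncasted and in 3 of 8 for casted with MOTS-c against uncasted. Whether the numbers mark pairs was not tested.

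Members called lower in casted against uncasted muscle were 0, or 1 (H2-DMa) with only casted replicates 5 to 8, and 0 to 1 with any 1 library left out. Members called higher in casted with MOTS-c against uncasted were 0, or 5 on deposited TPM. Directions that turned, none of them called in the scaled fit except that of Ctsb, were as follows. On deposited TPM, casted against uncasted gave 0.34 for H2-Aa, 0.32 for H2-Ab1, 0.34 for H2-Eb1, 0.049 for H2-DMa, 0.27 for H2-DMb1 and 0.23 for Cd74. H2-DMa was 0.18 in casted with MOTS-c against uncasted. With casted replicates 1 to 4, casted against uncasted gave 0.076 for H2-Aa, 0.0765 for H2-Ab1, 0.18 for H2-Eb1, 0.062 for H2-DMb1 and 0.0036 for Cd74. In casted with MOTS-c against casted, Nfyb was -0.013 and H2-D1 -0.072 on deposited TPM, H2-D1 -0.0060 with median-of-ratios scaling, and with casted replicates 1 to 4 Ctsl was 0.26, Ptpn2 0.11 and H2-D1 -0.017. Relative to leukocyte markers, H2-Ab1 was -0.042 with a pseudocount of 0.1 and -0.056 with replicates 1 to 4, and H2-Eb1 was -0.088 with replicates 1 to 4. With any 1 library left out, H2-D1 was between -0.034 and 0.0504, Cd68 between -0.34 and 0.018, H2-Ab1 and H2-Eb1 relative to leukocyte markers between -0.059 and 0.063 and between -0.041 and 0.12, all in casted with MOTS-c against casted, and H2-DMb1 between -0.13 and 0.0044 in casted against uncasted. Ctsb, called lower in casted against uncasted muscle, was called higher there on deposited TPM (0.33), and lost its call with only casted replicates 5 to 8 (-0.16) and without casted replicate 6 (-0.15). In casted with MOTS-c against uncasted, where it was not called, it was 0.43 on deposited TPM and between -0.027 and 0.022 with any 1 library left out. The cause was not tested. On deposited TPM, 9132 genes were called higher and 1091 lower in casted against uncasted (4223 and 4074 when scaled), and 8808 and 1019 in casted with MOTS-c against uncasted (3817 and 3628). TPM gives shares of each library, so absolute amounts were not measured, and genes near 0.5 TPM or below could not be compared.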
